A study of Mus musculus with 6 samples.

Results

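Peaks of open chromatin were examined at 10 mouse genes whose products write or erase modifications of lysine 36 of histone H3 (H3K36), namely Setd2, Nsd1, Ash1l, Setmar, Kdm2a, Kdm2b, Kdm4a, Kdm4c, Kat2a and Kat2b. They were named for what their products do, with earlier results of these data known. They were 10 of the 21440 protein-coding genes whose 5′ end could be placed. At each gene, every listed ATAC-seq peak that overlapped the window from 10 kb before the 5′ end to 10 kb past the 3′ end was taken. Merging the peaks of the 6 libraries where they overlapped or touched gave 90 regions in these windows, of 158725 regions in all.

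Libraries were made from Sirt7-/- mice (S7KO, 3 libraries) and from wild types (WT, 3 libraries), all on the 129S1/Sv background, untreated and at postnatal day (Pnd) 5. The deletion was carried in the germline, so germ cells and their somatic neighbours lacked the deacetylase SIRT7 alike. Each library began from 50000 testis cells enriched in spermatogonia, the mitotic germ cells, by plating that removes somatic cells. In ATAC-seq the Tn5 transposase cuts accessible DNA and inserts sequencing adapters, so a listed peak marks chromatin that was open in some of the cells, and it does not measure expression. The replicate numbers 1, 2 and 4 given in the sample titles of either genotype serve as names. The sample descriptions number the same libraries 2, 3 and 4 in the same order, so WT replicate 2 here is the library whose description gives 3. Per the study's methods the 3 replicates of a genotype were independent biological replicates, while the labels do not say which animals each library came from.

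H3K36 carries methyl groups or an acetyl group on the same residue. SETD2 is the main enzyme that trimethylates it, behind elongating RNA polymerase II, whereas NSD1 and ASH1L make the mono- and dimethylated forms that spread over active genes and the sequence between them. SETMAR holds a SET methyltransferase domain and has been linked to H3K36 dimethylation and DNA repair. KDM2A and KDM2B remove the lower methyl states and bind unmethylated CpG islands through a zinc finger, and KDM2B also brings a Polycomb complex to such islands. KDM4A and KDM4C remove trimethylation of H3 lysine 9 and of H3K36. KAT2A (GCN5) and KAT2B (PCAF) are the acetyltransferases of the SAGA and ATAC coactivator complexes, and H3K36 is among their target residues. SIRT7, the enzyme absent in S7KO, removes the acetyl group from H3K36, and the contrast of S7KO with WT asked whether its loss altered accessible chromatin.

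The promoter sequences that bear on the peaks are shown first, because 3 of these genes had annotated starts far apart, and the peaks over them differed. Each is 300 bases from RefSeq on GRCm38.p6, from 250 bases before a transcript start to 50 bases past it, written 5′ to 3′ along the gene. Capitals mark matches on either strand to 7 motifs, with overlapping matches of a motif counted separately and no motif contained in another. All 32851 promoters of the table were searched in the same way. The motifs were the GC box GGGCGG of Sp and KLF factors, present in 35.7% of all promoters, the CCAAT box CCAAT of NF-Y in 37.4%, the ETS motif CCGGAAG in 8.86%, the NRF1 motif GCATGCGC in 2.71%, the YY1 motif AAGATGGCG in 1.40%, the E-box CACGTG of MYC and USF in 7.15%, and the TATA box TATAAA in 13.6%. The table held 12 starts for 7 of the 10 genes and no entry for Nsd1, Ash1l and Kdm2a.

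For Kdm4c, the gene with the shortest promoter coverage, the first sequence is the outermost annotated start (chr4:74242247-74242546, plus strand) and the second the start 9382 bp further into the gene (chr4:74251629-74251928).
Kdm4c outer start: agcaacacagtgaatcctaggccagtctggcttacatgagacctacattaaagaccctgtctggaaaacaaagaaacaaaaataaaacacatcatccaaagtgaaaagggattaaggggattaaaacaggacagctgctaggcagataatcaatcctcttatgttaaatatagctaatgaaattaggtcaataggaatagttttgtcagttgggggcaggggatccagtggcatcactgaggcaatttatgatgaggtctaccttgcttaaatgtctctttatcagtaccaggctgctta
Kdm4c inner start: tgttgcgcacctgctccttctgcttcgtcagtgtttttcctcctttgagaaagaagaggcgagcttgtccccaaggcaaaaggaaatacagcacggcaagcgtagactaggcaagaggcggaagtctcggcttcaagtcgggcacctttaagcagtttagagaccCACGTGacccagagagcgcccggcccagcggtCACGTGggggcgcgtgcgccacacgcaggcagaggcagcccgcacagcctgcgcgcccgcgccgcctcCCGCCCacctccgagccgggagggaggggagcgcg
The outer start had 40.0% G and C, no CpG and no listed peak in any library. The inner start had 64.7% G and C, 28 CpG dinucleotides, 2 E-boxes and 1 GC box, and a peak lay over it in all 6 libraries.

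For Kdm2b, the gene with the longest promoter coverage, the outer start (chr5:122989050-122989349, minus strand) is followed by a start 88920 bp from the 5′ end of the gene (chr5:122900301-122900600), from which a shorter transcript begins.
Kdm2b outer start: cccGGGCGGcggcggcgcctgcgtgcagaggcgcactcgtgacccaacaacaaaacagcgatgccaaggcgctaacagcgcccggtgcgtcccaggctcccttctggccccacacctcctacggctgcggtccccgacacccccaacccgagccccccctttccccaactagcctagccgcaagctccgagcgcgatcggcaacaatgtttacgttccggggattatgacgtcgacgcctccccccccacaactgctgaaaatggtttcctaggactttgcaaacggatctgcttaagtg
Kdm2b inner start: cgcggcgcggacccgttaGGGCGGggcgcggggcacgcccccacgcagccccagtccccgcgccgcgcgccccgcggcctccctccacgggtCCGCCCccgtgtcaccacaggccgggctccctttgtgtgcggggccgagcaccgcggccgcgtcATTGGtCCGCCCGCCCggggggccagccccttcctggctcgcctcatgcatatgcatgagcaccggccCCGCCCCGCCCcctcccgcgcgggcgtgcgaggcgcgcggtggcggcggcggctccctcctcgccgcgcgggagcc
The outer sequence had 63.7% G and C, 28 CpG and 1 GC box, and the inner sequence had 81.7% G and C, 49 CpG, 6 GC boxes and 1 CCAAT box. Peaks lay over both in all 6 libraries.

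Kat2b likewise had a second annotated start 17352 bp from its 5′ end (chr17:53583876-53584175, plus strand), beside the outer one at chr17:53566721-53567020.
Kat2b outer start: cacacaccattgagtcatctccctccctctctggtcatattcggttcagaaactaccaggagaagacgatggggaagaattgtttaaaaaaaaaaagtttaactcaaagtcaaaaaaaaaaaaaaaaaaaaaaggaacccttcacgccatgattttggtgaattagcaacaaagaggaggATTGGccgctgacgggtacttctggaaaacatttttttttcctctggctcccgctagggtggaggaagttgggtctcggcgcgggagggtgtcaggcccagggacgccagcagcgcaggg
Kat2b inner start: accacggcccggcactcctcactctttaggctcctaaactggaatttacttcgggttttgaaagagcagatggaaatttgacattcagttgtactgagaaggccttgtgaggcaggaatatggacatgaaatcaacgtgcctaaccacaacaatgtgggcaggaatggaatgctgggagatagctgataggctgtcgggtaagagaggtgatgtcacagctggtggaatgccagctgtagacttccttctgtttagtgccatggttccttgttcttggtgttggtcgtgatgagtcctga
The outer sequence held 1 CCAAT box and 11 CpG, and the inner one no searched motif and 6 CpG. Kdm4a is shown as the gene whose promoter peak ranked highest in every library (chr4:118179994-118180293, minus strand).
Kdm4a: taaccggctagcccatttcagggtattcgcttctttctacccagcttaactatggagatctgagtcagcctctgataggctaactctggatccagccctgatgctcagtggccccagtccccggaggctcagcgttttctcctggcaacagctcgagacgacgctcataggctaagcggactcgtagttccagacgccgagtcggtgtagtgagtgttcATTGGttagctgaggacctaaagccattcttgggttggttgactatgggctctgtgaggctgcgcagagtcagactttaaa
It held 1 CCAAT box near its start and 13 CpG. Over the whole table, promoters with a peak on the start in all 6 libraries had a median of 60.7% G and C and 20 CpG, and those with a peak in no library had 46.0% and 3. The 12 starts of these genes had medians of 57.0% and 18.5. A match of letters is a description and not a mapped binding site.

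**Figure D1:**
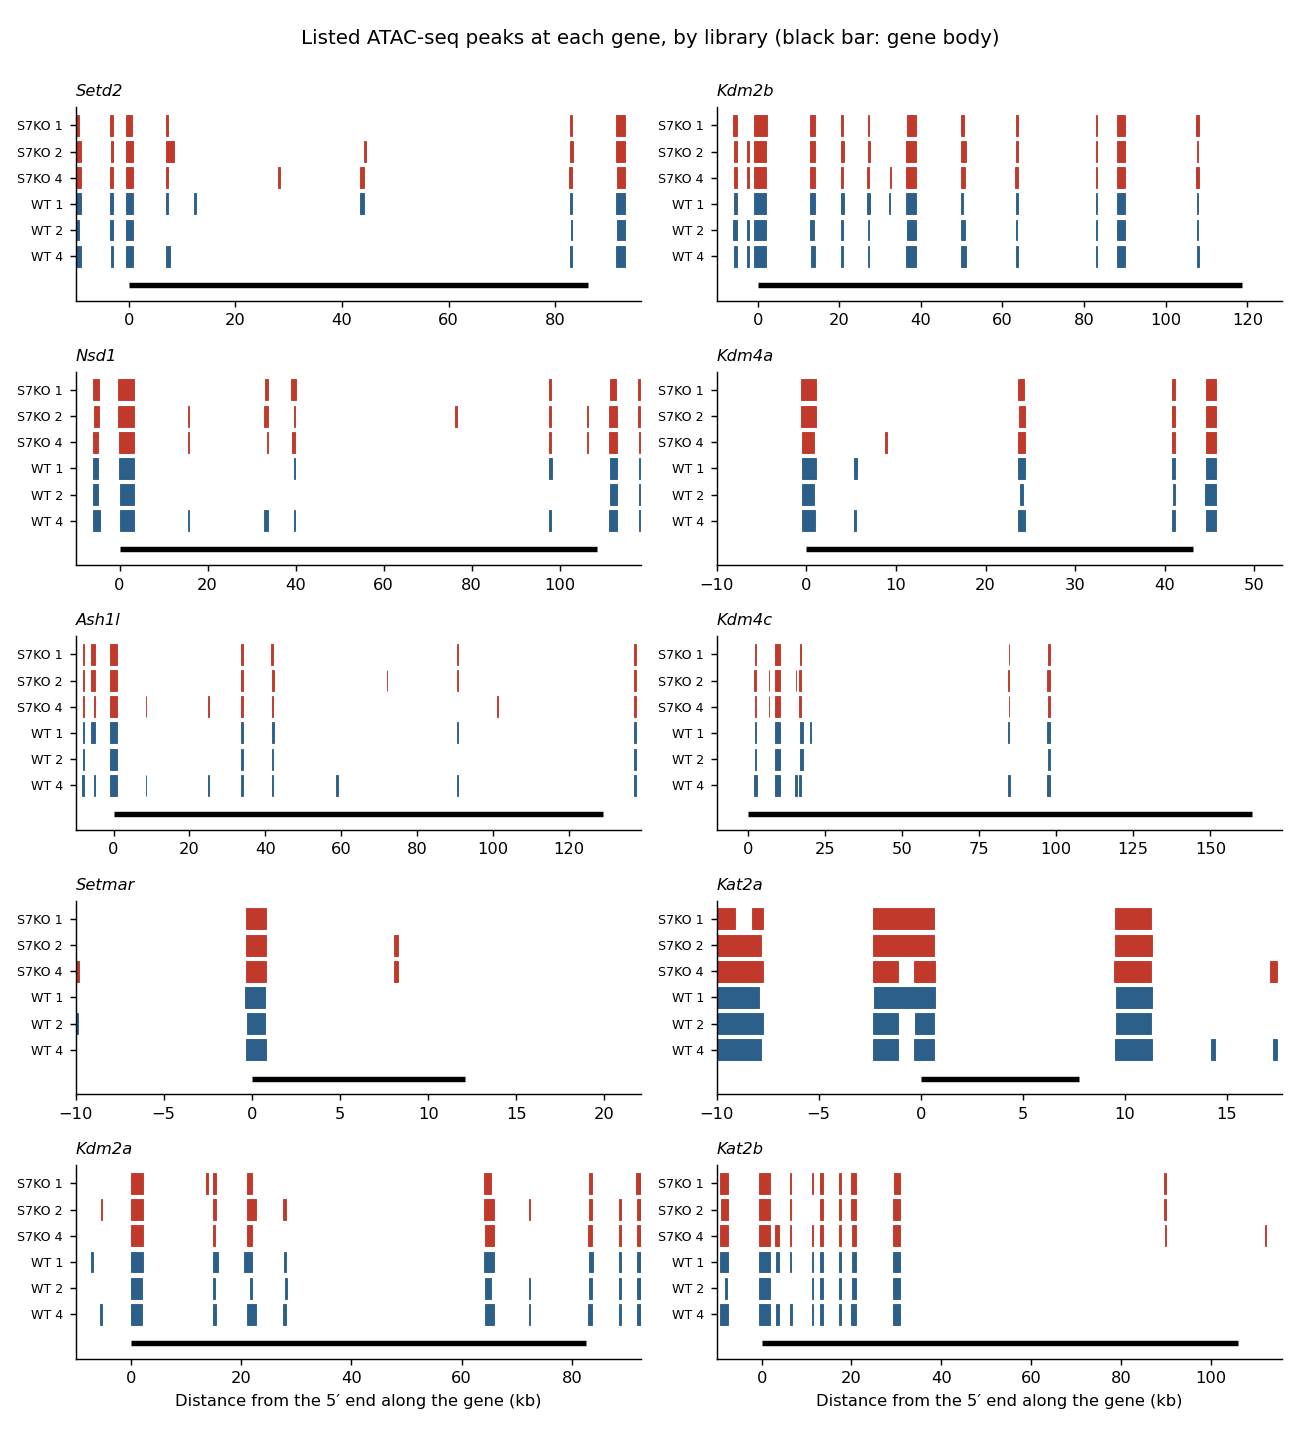
Every listed peak in the window of each of the 10 genes, by library (rows, S7KO in red and WT in blue), against the distance from the 5′ end along the gene in kb. The black bar is the gene body. All genes had a peak within 3 kb of the 5′ end in all 6 libraries, and 50 of 90 merged regions were listed in all 6.

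The lists held between 105754 and 133695 peaks per library. Read depth was not given with the lists, and the background coverage recovered from the deposited fold and p-values served as its relative estimate. It lay between 4.72 and 6.03 in 5 libraries and was 2.92 in WT replicate 2, the shallowest, whose list was also the shortest. The part of depth in peaks absent from that library was not tested. The promoter of Sirt7 itself held 1 peak in each of the 6 libraries. An open promoter does not check the deletion.

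No gene of the 10 separated the genotypes in the lists as deposited, and with equal numbers of peaks per library Nsd1 alone did so, in covered length. With equal numbers, 5.60% of all protein-coding genes did so with S7KO above and 1.24% with WT above. S7KO listed 62, 72 and 77 peaks in the 10 windows together (replicates 1, 2 and 4), and WT listed 67, 57 and 74. The ranges overlapped, and the lowest value was that of WT replicate 2. The means were 70.3 ± 7.64 in S7KO and 66.0 ± 8.54 in WT (SD, n = 3), a difference of 4.33 peaks that became -0.167 without WT replicate 2. These peaks covered 64.5 ± 3.62 kb in S7KO and 61.3 ± 8.18 kb in WT, and the difference of 3.24 kb became -1.48 kb without that library. No test was made on these sums over chosen genes.

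Gene by gene, 0 of 10 had all 3 libraries of a genotype above all 3 of the other in peak number. Over all protein-coding genes this held for 1.19% with S7KO above WT and for 0.196% with WT above S7KO. For covered length it again held for 0 of 10, beside 6.35% of all genes with S7KO above and 0.508% with WT above. For length covered within 3 kb of the 5′ end it held for 0 of 10, beside 5.39% and 1.16%. Exact two-sided permutation tests of each gene and each of these 3 measures over the 20 assignments of libraries gave p between 0.2 and 1, where the smallest p possible was 0.1. Such a p does not show that the genotypes were alike, since 3 libraries against 3 cannot pass 0.05 in this test. WT replicate 2 alone was the lowest of the 6 libraries in covered length at 8 of the 10 genes and in peak number at 5.

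**Figure D2:**
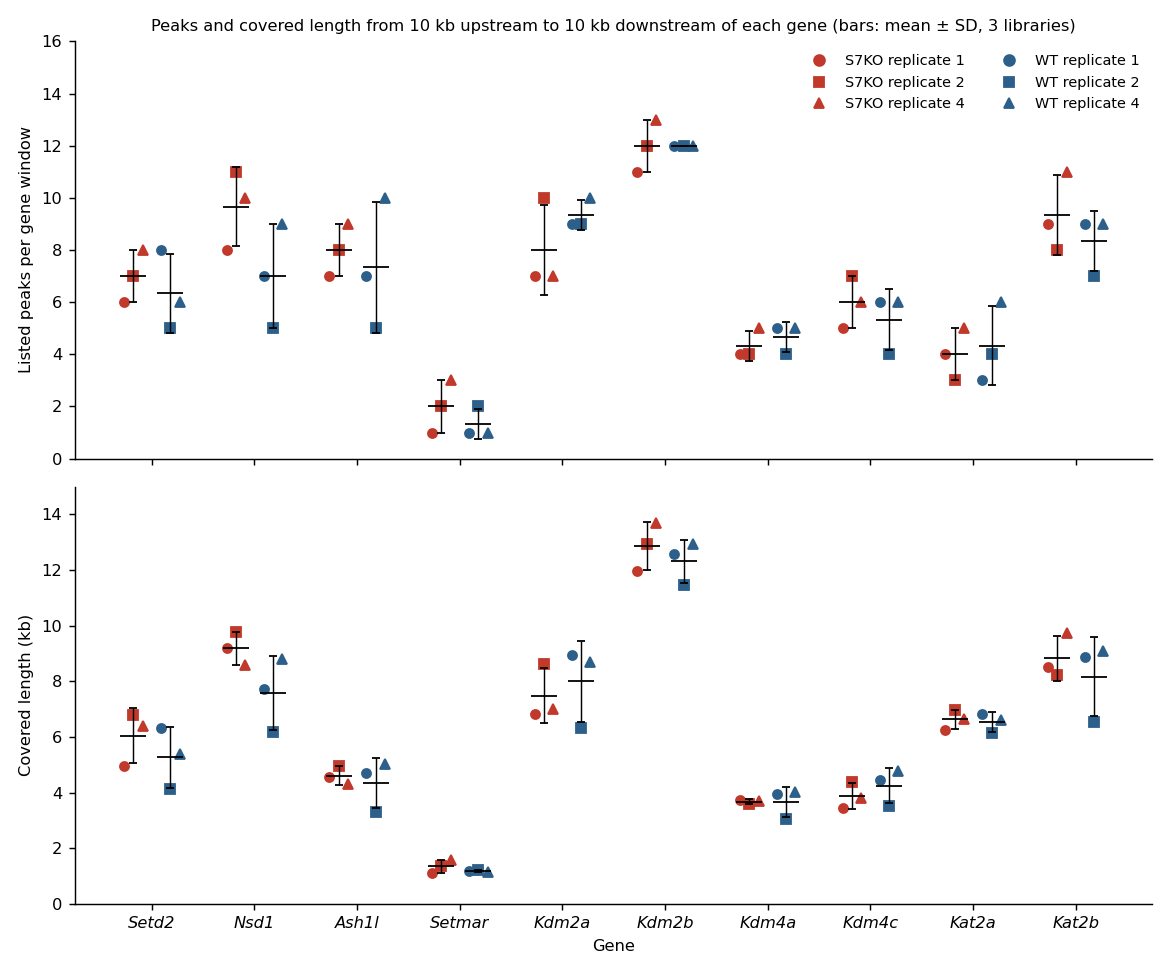
Number of listed peaks (top) and covered length in kb (bottom) in the window of each gene, 1 point per library, with black marks for the mean and bars for the SD of the 3 libraries of each genotype. At every gene the S7KO and WT points overlap, and WT replicate 2 (blue square) is the lowest point in covered length at 8 genes.

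All 10 genes had a peak within 3 kb of the 5′ end in all 6 libraries, as did 74.0% of protein-coding genes. At 7 of the 10 a peak lay over the 5′ end itself in every library. The share of all genes with this was not computed. Of the 32851 starts in the promoter table, 50.5% had a peak on the start in all 6 libraries. Promoter peaks were ranked within their own list by −log10 q, so that the top 1% are the strongest. For a broad peak MACS2 writes the mean of this value over the length of the peak, and a wide peak with even, moderate signal can therefore rank below a narrow one. Among genes with a promoter peak the median rank of the strongest was between 7.60% and 9.77% in the 6 libraries, and the median over the 10 genes was between 9.54% and 15.3%.

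Length and strength put these promoters in different orders. The length covered within 3 kb of the 5′ end averaged 3258 ± 161 bp at Kdm2b, 3112 ± 150 bp at Nsd1, 2590 ± 447 bp at Kat2a and 2426 ± 37.0 bp at Kat2b (SD over 6 libraries, n = 6). In that order, the ranges of neighbours among these genes overlapped. Below them came Kdm2a at 2152 ± 130 bp and Ash1l at 1770 ± 41.5 bp, each apart from its neighbours in that order in every library, although the range of Kat2a also reached that of Kdm2a. Kdm4a at 1468 ± 141 bp and Setd2 at 1320 ± 28.3 bp overlapped, and Setmar at 1117 ± 41.8 bp and Kdm4c at 575 ± 166 bp were each below the rest in every library. The median over the 10 was 1961 bp, beside 1248 bp over all protein-coding genes and 1463 bp over those with a promoter peak in all 6 libraries. By rank the order began with Kdm4a, Setmar and Setd2, and Kdm2b, the longest, was ninth.

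**Figure D3:**
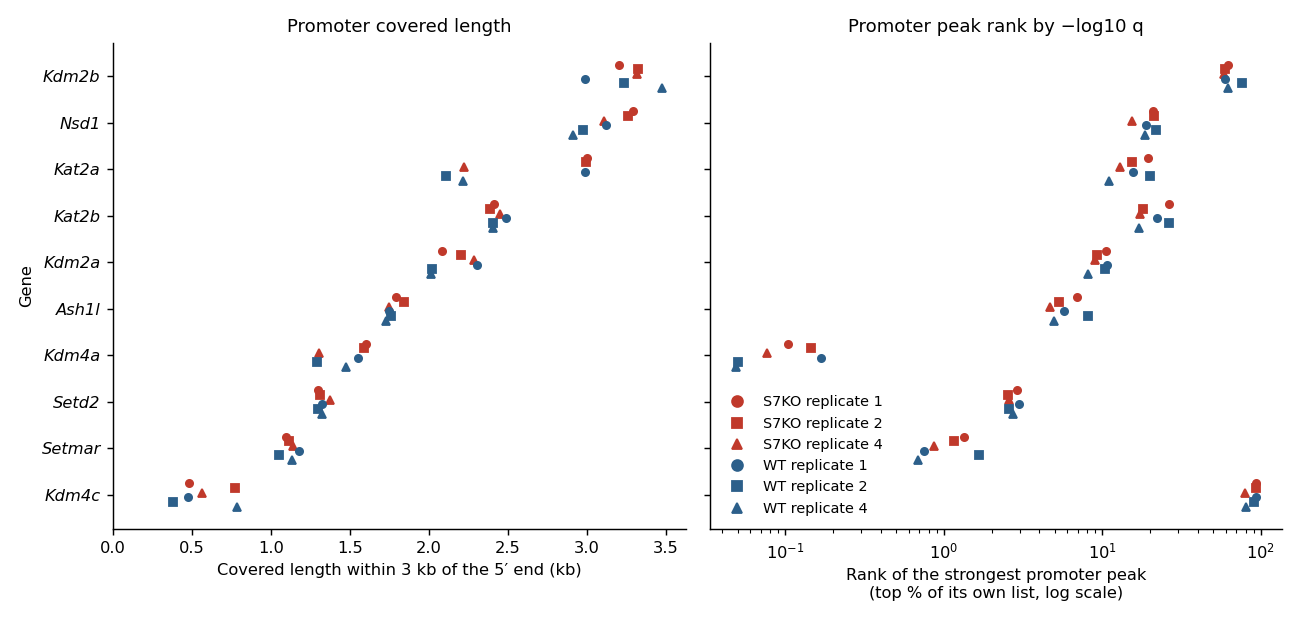
Length covered by peaks within 3 kb of the 5′ end in kb (left) and rank of the strongest promoter peak in its own list in percent, on a log axis (right), for each gene and library, with genes in order of mean covered length. Kdm2b covered the most, with a mean of 3258 bp, yet its strongest peak ranked between 58.2% and 75.5%, while Kdm4a covered a mean of 1468 bp and ranked within the top 0.167%.

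Among the methyltransferase genes, Setd2 (GRCm38.p6, chr9:110532500-110618633, plus strand) had the smallest SD in promoter coverage. The promoter peak was 1296, 1307 and 1373 bp wide in S7KO replicates 1, 2 and 4 and 1321, 1299 and 1321 bp in WT, and it ranked between 2.52% and 2.96%. Genotype means differed by 11.7 bp, within the SD of S7KO. The promoter of Setd2 was the richest of the 12 starts in GC boxes, with 7, and had 77.3% G and C. Setd2 listed 6, 7 and 8 peaks in S7KO and 8, 5 and 6 in WT. Its widest region outside the promoter that all libraries listed lay 91.4 kb from the 5′ end, past the 3′ end. The 5′ end of Nradd lay within 1 kb of that region.

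Nsd1 (chr13:55209782-55318325, plus strand) had the largest difference in mean peak number between genotypes of the 10 genes. It listed 8, 11 and 10 peaks in S7KO and 7, 5 and 9 in WT. S7KO replicate 1 lay below WT replicate 4, so the groups overlapped. The means were 9.67 ± 1.53 and 7.0 ± 2.0, a difference of 2.67 (exact permutation test, two-sided, p = 0.2, n = 3 per genotype), or 1.67 without WT replicate 2. Covered length was 9211, 9759 and 8585 bp in S7KO against 7738, 6162 and 8809 bp in WT (exact p = 0.2), and here S7KO replicate 4 fell under WT replicate 4. With only the strongest 105728 peaks of each list the 3 S7KO libraries all lay above the 3 WT libraries in covered length, by 1268 bp in the mean (exact two-sided permutation p = 0.1, the smallest possible). That pattern then held for 5.60% of all protein-coding genes with S7KO above and 1.24% with WT above. A region 106 kb into Nsd1 was listed in S7KO replicates 2 and 4, at ranks of 84.3% and 78.9%, and in no WT library. One at 32.8 kb was listed in all 3 S7KO libraries (ranks of 99.4%, 97.3% and 66.9%) and in WT replicate 4 (92.1%). The shares of all regions with such patterns were not computed.

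The promoter peak of Nsd1 ran almost wholly downstream of the 5′ end. It reached from between 291 bp upstream and 88 bp downstream of the 5′ end to between 3242 and 3291 bp past it, and lay over the 5′ end in 4 of 6 libraries. It ranked between 15.3% and 21.7%. Within 3 kb of the 5′ end it covered 3292, 3260 and 3108 bp in S7KO and 3122, 2974 and 2913 bp in WT. Only S7KO replicate 4 and WT replicate 1 kept these groups from separating. A region 111 kb from the start and past the 3′ end was the widest other region listed in all 6. The 5′ ends of Rab24 and Prelid1 lay within 1 kb of it.

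Ash1l (chr3:88950414-89079375, plus strand) shared its promoter region with Dap3, whose 5′ end lay within 1 kb. The peak was 1792, 1842 and 1749 bp wide in S7KO and 1750, 1761 and 1725 bp in WT, ranked between 4.64% and 8.11%, and extended about equally to either side of the 5′ end. S7KO listed 7, 8 and 9 peaks at Ash1l and WT 7, 5 and 10. The difference of means of 0.667 became -0.500 without WT replicate 2. Of its 12 regions 5 were listed in all 6 libraries, and outside the promoter the widest of these was 650 bp, 137 kb from the 5′ end and past the 3′ end.

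Setmar (chr6:108065045-108077127, plus strand), the shortest of the methyltransferase genes, had little but its promoter. The window held 1, 2 and 3 peaks in S7KO and 1, 2 and 1 in WT, and the promoter region was the only one of 3 listed in all 6. That peak was 1051 to 1174 bp wide, ranked between 0.683% and 1.65%, and had a fold enrichment over local background between 7.54 and 8.20, the highest promoter value of the 10 genes in every library. None of the 7 motifs was found in the 300 bases around its start. A region 8.05 kb into the gene was listed in S7KO replicates 2 and 4, at ranks of 74.6% and 54.3%, and in no WT library. The share of all regions with this pattern was not computed.

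Over the 4 methyltransferase genes S7KO listed 22, 28 and 30 peaks and WT 23, 17 and 26. The means were 26.7 ± 4.16 and 22.0 ± 4.58 (SD, n = 3), and the difference of 4.67 became 2.17 without WT replicate 2. The groups overlapped.

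Among the demethylase genes were the longest and the shortest promoter coverage of the 10. Kdm2b (chr5:122870664-122989270, minus strand) had the most peaks of the 10 genes, with 11, 12 and 13 in S7KO and 12 in each WT library. Of its 13 regions, 11 were listed in all 6 libraries, 84.6% against 57.1% of all regions. Its promoter region was 3263 bp in all, and the 5′ end of the non-coding gene A930024E05Rik lay within 1 kb of it. A second region upstream, at -2.10 kb, was listed in 4 libraries, 2 of each genotype. The main promoter peak was wide and weak, 2775 to 3205 bp and ranked between 58.2% and 75.5%. The peak over the inner start was narrower and stronger, 1767 to 1960 bp and ranked between 6.96% and 9.75%. In every library, then, the inner start of Kdm2b had the higher rank. The widest region away from any annotated start of the gene lay 36.5 kb into it, spanned 2493 bp and ranked between 15.7% and 20.4%.

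At Kdm4c (chr4:74242497-74405864, plus strand) the contrast between starts was larger. Nothing lay over the outer start, and the peak counted for its promoter began at least 2069 bp downstream of it. That peak was 480, 770 and 561 bp wide in S7KO and 475, 381 and 784 bp in WT, and it ranked between 79.5% and 93.7%. Over the inner start a peak of 1767, 1615 and 1627 bp in S7KO and 1782, 1582 and 1579 bp in WT ranked between 2.19% and 3.28%. Measured from the outer start, the promoter of Kdm4c thus ranked lowest of the 10 in every library. By fold enrichment it was not the lowest in every library. The inner start ranked beside the promoter of Setd2. Kdm4c listed 5, 7 and 6 peaks in S7KO and 6, 4 and 6 in WT, or 0.309 per 10 kb, the sparsest of the 10 genes.

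Kdm4a (chr4:118136957-118180090, minus strand) had the strongest promoter peak by rank. It ranked at 0.104%, 0.145% and 0.0765% of the list in S7KO and at 0.167%, 0.0501% and 0.0486% in WT. The peak was 1604, 1586 and 1301 bp wide in S7KO and 1549, 1288 and 1477 bp in WT. Peak counts were 4 or 5 in every library. A region 5.27 kb into Kdm4a was listed in WT replicates 1 and 4, at ranks of 59.2% and 56.9%, and in no S7KO library. The share of all regions with this pattern was not computed. The region 44.5 kb from the 5′ end of Kdm4a, past its 3′ end, was listed in all 6 and ranked between 1.35% and 2.62%. The 5′ end of St3gal3 lay within 1 kb of that region.

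Kdm2a (chr19:4316144-4398721, minus strand), the paralog of Kdm2b, had a promoter peak whose edge lay 2 to 125 bp downstream of the annotated 5′ end in every library, on the gene side. It was 2012 to 2302 bp wide and ranked between 8.12% and 10.7%, above the outer promoter of Kdm2b in every library. The 5′ end of 9430078G10Rik lay within 1 kb of the promoter region of Kdm2a. Kdm2a listed 7, 10 and 7 peaks in S7KO and 9, 9 and 10 in WT. Its difference of -1.33 was the largest with WT above S7KO among the 10 genes (exact two-sided permutation p = 0.4), and S7KO replicate 2 tied the highest WT library. Regions 27.6 kb and 88.6 kb from the 5′ end were listed in all 3 WT libraries and in 1 and 2 S7KO libraries. The first ranked between 67.8% and 94.0% and the second between 50.5% and 78.8%. The shares of all regions with such patterns were not computed. The region 64.1 kb into the gene ranked between 1.90% and 3.04%, above the promoter of Kdm2a in every library. No annotated 5′ end of another gene lay within 1 kb of that region. Inner starts of Kdm2a itself could not be looked up, as the promoter table had no entry for it. The widest region outside the promoter listed in all 6 was 2126 bp, 20.6 kb into the gene, and weak, with ranks between 66.9% and 88.2%.

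Over the 4 demethylase genes S7KO listed 27, 33 and 31 peaks and WT 32, 29 and 33, with means of 30.3 ± 3.06 and 31.3 ± 2.08 (SD, n = 3). The difference was -1.0.

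Of the acetyltransferase genes, Kat2a (chr11:100704746-100712485, minus strand) is the shorter, and its window of 27.7 kb held 1.5 peaks per 10 kb, the densest of the 10. The 5′ end of Hspb9 lay within 1 kb of the promoter region of Kat2a. In S7KO replicates 1 and 2 and WT replicate 1 the region was a single peak of 3000, 2998 and 2990 bp. In S7KO replicate 4, WT replicate 2 and WT replicate 4 it was split in 2, which left 2225, 2111 and 2214 bp covered. Each genotype thus had libraries of both kinds, and the SD of 447 bp at this promoter came with that split. Listed peaks were 4, 3 and 5 in S7KO and 3, 4 and 6 in WT. The widest other region listed in all 6 lay upstream at -7.71 kb, spanned 2361 bp and ranked between 55.5% and 83.8%.

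Kat2b (chr17:53566774-53672721, plus strand) had a promoter peak of 2387 to 2487 bp, ranked between 16.97% and 26.4%, and differing little between libraries. A narrow peak of 395 to 442 bp lay over its inner start in all 6 and ranked between 54.2% and 81.6%, so here, unlike at Kdm2b and Kdm4c, the outer start had the higher rank in every library. Kat2b listed 9, 8 and 11 peaks in S7KO and 9, 7 and 9 in WT. The widest region outside the promoter listed in all 6 lay upstream at -7.51 kb and spanned 1855 bp, of which WT replicate 2 covered 504 bp and the other libraries between 1593 and 1855 bp.

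Of the regions at the 10 genes, 1 was listed in 3 of 3 libraries of a genotype and 0 of 3 of the other, and it lay inside Kat2b, 89.5 kb from its 5′ end (chr17:53656305-53656766). It covered 462, 377 and 208 bp in S7KO replicates 1, 2 and 4 and had no peak in any WT library. The 3 peaks were among the weakest of their lists, at ranks of 86.2%, 90.2% and 98.4% and −log10 q of 2.53, 1.90 and 1.51. The pattern was lost with a −log10 q of at least 3, with equal numbers of peaks per library, and when 50% of the region had to be covered. A single region in 3 of 3 and 0 of 3 libraries cannot pass a test. Among all regions 0.416% were specific to S7KO in this way and 0.0743% to WT, beside 1 and 0 of the 90 regions here.

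Of the 90 regions, 50 (55.6%) were listed in all 6 libraries, close to the 57.1% of all regions, and 12 in a single library. The recurrent regions were wide, with a median of 1156 bp, and those of 1 library narrow, with a median of 276 bp, as over all regions, where the medians were 1058 and 256 bp. By position, 10 of 11 promoter regions were listed in all 6, and 24 of 55 in the gene bodies, 8 of 12 upstream and 8 of 12 downstream. The shares by position over all regions were not computed. A further 6 regions (6.67%) were absent from WT replicate 2 alone, 2 at Nsd1 and 1 each at Setd2, Ash1l, Kdm4c and Kat2b, beside 4.79% of all regions.

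**Figure D4:**
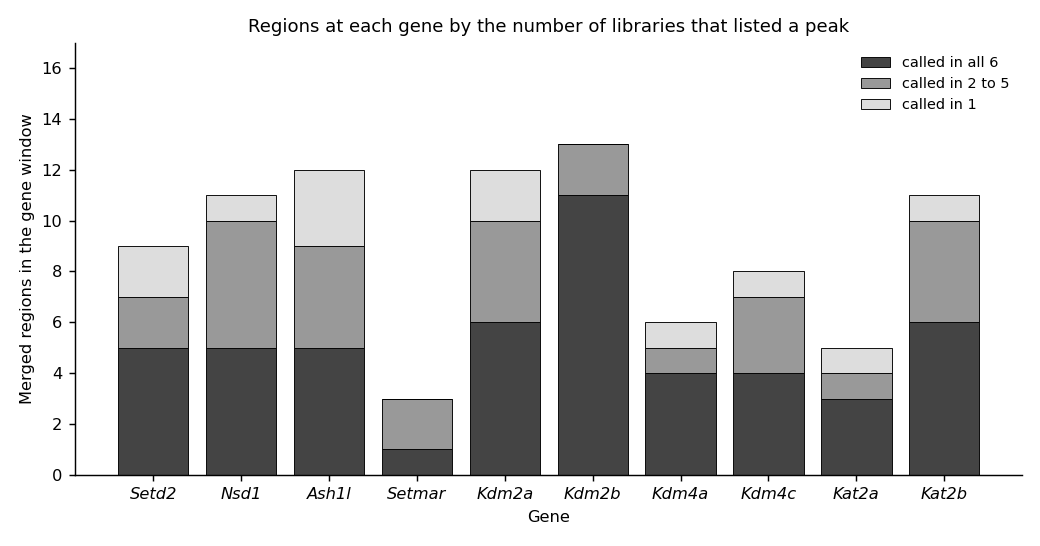
Number of merged regions in the window of each gene, stacked by whether all 6, 2 to 5 or only 1 of the libraries listed a peak there. Kdm2b had 11 of 13 regions in all 6 libraries, and Setmar 1 of 3.

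The windows of these genes were long, with a median of 116 kb against 37.5 kb over all protein-coding genes, and their median was 7.17 peaks beside 3.50. Per 10 kb the median was 0.675 against 0.776.

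The same reading was made at 35 other genes of the pathway. All 35 had a promoter peak in all 6 libraries. Among the other methyltransferases (4 genes) the length covered at the promoter ran from 1199 ± 74.0 bp at Prdm9, the enzyme that marks meiotic recombination sites, to 2504 ± 110 bp at Nsd2, the paralog of Nsd1 (SD over 6 libraries). Among the other demethylases (4 genes) it ran from 972 ± 12.4 bp at Kdm4b to 2406 ± 197 bp at Riox1. Among readers of H3K36 methylation (10 genes) it ran from 1039 ± 30.9 bp at Phf1 to 2480 ± 133 bp at Zmynd11, and among subunits of the KAT2 complexes (17 genes) from 977 ± 26.8 bp at Taf6l to 2268 ± 347 bp at Tada2b. The shortest of the 35 was thus longer than the promoter coverage of Kdm4c taken from its outer start.

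The genotypes separated by peak number at 2 of the 35, both with S7KO above WT, beside 1.19% of all protein-coding genes in that direction and 0.196% in the other. Mtf2, a Polycomb-associated reader, listed 8, 7 and 7 peaks in S7KO and 5, 6 and 5 in WT, and Morf4l1, a chromodomain reader, listed 7, 7 and 6 against 4, 4 and 5. Covered length separated them at 0 of 35. Promoter covered length did so at Mtf2, at 1182, 1215 and 1184 bp in S7KO and 1160, 1089 and 1165 bp in WT, and the other way at Supt20, at 1023, 1004 and 985 bp in S7KO and 1098, 1047 and 1039 bp in WT. That is 1 of 35 in each direction, beside 5.39% of all genes with S7KO above and 1.16% with WT above.

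Promoter peaks were also read at markers of cell types. Such peaks cannot check the label of the cells, since 74.0% of all protein-coding genes had one in all 6 libraries. All 10 germ cell markers, among them Zbtb16, which encodes PLZF, had a promoter peak in every library, with 20.5 to 24.0 kb covered in sum. So did all 5 Sertoli cell markers, with 10.7 to 11.9 kb, and all 3 peritubular myoid markers, with 6.35 to 7.34 kb. Of 5 Leydig cell markers 4 or 5 had one, with Hsd3b1 open in WT replicate 4 alone. Of 5 blood and endothelial markers 2 or 3 had one. Csf1r and Cdh5 had a promoter peak in all 6 libraries, Pecam1 in 3, and Ptprc and Hbb-bs in 0. Open promoters of somatic genes do not show that somatic cells were present, and the part of other cells in the values at the 10 genes was not tested.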

How the data were processed

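ATAC-seq peak lists of 6 Pnd 5 spermatogonia-enriched samples were used, 3 S7KO and 3 WT, as grouped by the genotype label. Per the study, the authors trimmed reads (Trim Galore 0.6.6), aligned them to mm10 (Bowtie2 2.4.4.1), kept unique, non-duplicate reads (SAMtools 1.19.2), removed mitochondrial reads, shifted ends for Tn5, kept fragments within a length range that begins above nucleosome-free length and called broad peaks per library (MACS2 2.2.5). The deposited lists hold, per peak and as written by the authors' caller, a score for display, an enrichment ratio of pileup over local background (fold) and −log10 values of p and q. They were used to rank or filter peaks within a list, not to compare signal between libraries. The study's text also mentions peaks called on merged nucleosome-free profiles, and the lists do not show which of these descriptions applies to them. Reads and fragment counts were not used here, so the authors' DiffBind test was not repeated.

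Gene positions and promoter sequences came from RefSeq (GRCm38.p6), with strand from the promoter table by gene ID or, failing that, from the GENCODE gene of the same symbol and chromosome. Exons and introns were not separated. Only the autosomes, X and Y were used. A library had a region if any of its peaks overlapped it, and no minimum overlap was set beyond 1 bp. Background coverage was solved from fold enrichment and p in peaks under 300 bp and read at the 1st percentile. Each gene's values were tested by exact permutation (two-sided) over 20 assignments. The code for intervals, for separation of the genotypes and for background coverage was tested on simulated data. The code of the exact tests was not tested in this way. Python 3.11.15, numpy 2.4.6, pandas 2.3.3 and matplotlib 3.10.9 were used.

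All 10 genes are named. The regions described singly are each promoter region, each genotype-specific region and the widest other region listed in all 6 libraries, and others mentioned were chosen after their values were seen. Sequences shown are those of the longest and shortest promoter coverage and of at least 1 member of each paralog pair, with the inner start where 1 lay far from the outer. The genes, pathway lists and markers were chosen with earlier results of these data known. Alternatives changed the number of peaks per library, the q threshold, the window, the promoter width, the merging and presence rules, the libraries used and the pairing.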

Additional observations from a re-analysis of the deposited data

How the results depend on the processing

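Read depth is known only as a relative estimate, WT replicate 2 was the shallowest library, and the part of depth was not tested. Without that library the difference between S7KO and WT in peaks at the 10 genes was -0.167 in place of 4.33, and in covered length -1.48 kb in place of 3.24 kb. Leaving out each library in turn, the first ranged from -0.167 to 8.50 peaks and the second from -1.48 to 5.81 kb. With the strongest 105728 peaks of each list the differences were 0.333 peaks and 1.88 kb. Genes separated by peak number ranged from 0 to 1, reaching 1 (Nsd1) without S7KO replicate 1 or WT replicate 4 and 1 (Kdm2a, WT above) without S7KO replicate 2. Genes separated by covered length ranged from 0 to 3, with 3 (Kdm2a, Kdm4a and Kdm4c, WT above) without WT replicate 2, 2 (Setd2 and Setmar) without S7KO replicate 1, and 1 (Nsd1) without S7KO replicate 4, without WT replicate 4 or with equal numbers of peaks, where 5.60% of all genes had S7KO above and 1.24% WT above. S7KO-specific regions ranged from 1 to 4, with 4 without S7KO replicate 1 and 2 without WT replicate 4. Regions specific to WT ranged from 0 to 1. Leaving out a library makes separation and specificity easier to reach by construction. The shares of all genes and of all regions without a library were not computed, so these counts cannot be read as results about the genes named. S7KO-specific regions numbered 0 with equal numbers of peaks, 0 at a −log10 q of at least 3, and 0 when 50% of the region had to be covered, where WT-specific regions numbered 1. Promoter peaks in all libraries were found at 9 genes with equal numbers of peaks or within 1 kb of the 5′ end (all but Kdm4c) and at 8 at the stricter q (all but Kdm4c and Kdm2b). With flanks of 5 kb or none, the counts of separated genes and of genotype-specific regions were as in the report, and merging across 200 bp left the counts of genotype-specific regions at 1 and 0.

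Of 220 values of single genes under the alternatives, 13 reversed. With so few libraries no p under 0.1 was possible in the exact tests, so the lack of lower values says nothing about the genes. Peak number at Kdm4c differed by -0.333 with equal numbers of peaks and at the stricter q, and covered length at Kat2a by -135 bp with equal numbers. Leaving out libraries, the difference ranged from -0.5 to 2.0 peaks at Ash1l and from -1.0 to 0.5 at Kat2a, and in covered length from -258 to 598 bp at Ash1l, from -314 to 163 bp at Kdm4a, from -96.5 to 283.5 bp at Kat2a and from -156 to 1121 bp at Kat2b. The cause of these reversals was not tested.

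With the replicate number as a replicate block, the differences were by construction the same 4.33 peaks and 3.24 kb, and exact sign-flip tests of single genes gave p from 0.25, the smallest possible, to 1. Deviations from the genotype mean over 158725 regions correlated at 0.106, -0.00239 and 0.142 between libraries of the same number (1, 2 and 4). Libraries of different numbers were not compared in this way, so whether a shared number means a shared origin was not tested.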
